A study of Mus musculus with 9 samples.

Results

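The genes of cholesterol and fatty acid synthesis were followed in mouse cortical neurons depleted of Tdp-43, along the pathway from acetyl-CoA to cholesterol. The group held 34 genes, taken by name from the biochemistry of the pathway: 7 of the mevalonate steps, 11 from squalene to cholesterol, 5 of sterol sensing, 3 of sterol transport and 8 of fatty acid synthesis. They were chosen with earlier results of these data known. A gene was matched where the array's annotation gave a probe set its symbol, or a synonym, and no other symbol. Of the 34 genes, 33 could be tested among 16770 genes in all, and Acat2, which joins acetyl-CoA units in the cytosol, is not analysed here.

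Neurons came from the cortex of C57BL/6 mouse embryos on embryonic day 15 and were grown with serum, B27 supplement and AraC, which kills dividing cells. On culture day 5 they took up lentivirus for 4 h, and RNA was taken on day 11. The virus carried a short hairpin RNA, either shTdp-43-1 or shTdp-43-2 against mouse Tdp-43, or the control hairpin shCont, with 3 Affymetrix exon arrays in each group. All groups were infected, the labels mention no selection of infected cells, and nothing states that replicates came from separate embryos or cultures, so p-values measure the spread between these arrays, which may be technical.

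Cells make cholesterol from acetyl-CoA by way of mevalonate, isoprenoid diphosphates, squalene and lanosterol, and fatty acids from acetyl-CoA by way of malonyl-CoA. Genes of both routes are switched on by the transcription factors SREBP-1 (Srebf1) and SREBP-2 (Srebf2), which sit in the endoplasmic reticulum (ER) membrane until sterols run low. Scap then escorts them to the Golgi, where they are cut free, and the Insig proteins hold Scap back while sterol is plentiful. The brain makes its own cholesterol, since lipoproteins of the blood hardly pass the blood-brain barrier, and both neurons and astrocytes take part.

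The promoters of 4 of the genes that the results turn on are shown because SREBPs act together with the factors NF-Y and Sp1 on promoters of this pathway. Each sequence is the 250 bases before the start site, from RefSeq in the build GRCm38.p6, on the plus strand and 5′ to 3′. Capitals mark the NF-Y motif CCAAT and the Sp1 motif GGGCGG, read on both strands, so that ATTGG and CCGCCC are their reverse strands. The windows lie at chr13:8885356-8885605 for Idi1, chr10:76531355-76531604 for Lss, chr5:28071162-28071411 for Insig1 and chr13:119690101-119690350 for Hmgcs1.
Idi1: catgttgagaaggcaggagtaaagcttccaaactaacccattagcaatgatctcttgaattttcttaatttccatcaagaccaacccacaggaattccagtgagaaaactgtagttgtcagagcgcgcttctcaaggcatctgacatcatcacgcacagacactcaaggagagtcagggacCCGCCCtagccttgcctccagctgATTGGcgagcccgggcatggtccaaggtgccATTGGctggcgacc
Lss: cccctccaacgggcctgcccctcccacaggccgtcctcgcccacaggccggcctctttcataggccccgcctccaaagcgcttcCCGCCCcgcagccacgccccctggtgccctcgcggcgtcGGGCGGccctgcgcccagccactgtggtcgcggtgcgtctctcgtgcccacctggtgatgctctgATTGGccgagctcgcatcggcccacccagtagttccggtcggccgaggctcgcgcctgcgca
Insig1: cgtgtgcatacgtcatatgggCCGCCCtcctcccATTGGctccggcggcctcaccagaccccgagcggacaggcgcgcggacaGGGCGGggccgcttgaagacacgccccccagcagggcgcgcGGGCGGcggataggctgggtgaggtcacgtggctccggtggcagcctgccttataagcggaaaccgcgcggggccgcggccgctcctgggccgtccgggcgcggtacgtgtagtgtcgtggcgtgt
Hmgcs1: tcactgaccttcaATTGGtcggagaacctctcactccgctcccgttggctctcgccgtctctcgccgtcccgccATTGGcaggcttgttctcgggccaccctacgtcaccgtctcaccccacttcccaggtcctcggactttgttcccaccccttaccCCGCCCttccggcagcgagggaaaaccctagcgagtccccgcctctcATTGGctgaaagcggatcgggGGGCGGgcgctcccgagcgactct

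In the Idi1 window both copies of the NF-Y motif end within the last 41 bases before the start, and the 1 Sp1 motif ends 64 bases before it. Hmgcs1 had 3 NF-Y and 2 Sp1 motifs, Insig1 had 1 and 3, and Lss had 1 and 2. Acaca and Sqle, which also rose with both hairpins (below), are not printed. The 1 window of Acaca held 0 NF-Y and 0 Sp1 motifs, and Sqle had no window. The sterol regulatory element SRE-1 was searched on both strands as 1 pattern of 10 letters, and other variants of the element were not searched. This pattern was in 0 of 34 windows of the group, which belong to 26 of the 34 genes. It was in 63 of all 32851 promoter windows of the same length, or 0.192%. At so low a rate 34 windows are too few to tell the group from other promoters. The count of 0 therefore does not show that these promoters lack the element. The NF-Y motif was in 20 of the 34 windows (58.8%), against 33.8% of all windows, and the Sp1 motif in 25 (73.5%), against 32.7% of all windows. Genes with several start sites gave several windows, and a match describes the letters of the window and no binding.

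Knockdown was checked on Tardbp, the gene of Tdp-43. Its gene value, the mean log2 value of its probe sets whose average over the 9 arrays reached the table's median of 6.07, was 7.84, 8.23 and 8.55 with shTdp-43-1 and 8.22, 8.58 and 7.90 with shTdp-43-2, against 9.77, 9.94 and 10.06 with shCont. The 6 knockdown arrays lay below the 3 control arrays, and the fitted level was 30.4% of control with shTdp-43-1 (limma, adjusted p = 0.000349) and 30.9% with shTdp-43-2 (adjusted p = 0.000109). Across genes, arrays of a group correlated with r of 0.985 to 0.994, and array medians of gene values were 8.75 to 8.94. All p-values below are adjusted over the 16770 genes, and called means an adjusted p under 0.05. Both hairpins were compared with the same 3 shCont arrays.

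Of the 33 genes, 5 rose with both hairpins: Idi1 in the mevalonate steps, Sqle and Lss in the sterol steps, Insig1 in sterol sensing and Acaca in fatty acid synthesis. None fell with both (limma; 0 also where p under 0.05 was left unadjusted in each). These 5 genes are 15.2% of the group, while 6.45% of all genes had calls of one sign from both hairpins, 2.95% upward and 3.49% downward. With shTdp-43-1 the same 5 genes were the ones called, all higher, against 11.1% of all genes called in either direction and 5.16% called higher. None of the group fell with shTdp-43-1 (limma; 1, Fasn, at an unadjusted p under 0.05), against 5.96% of all genes. With shTdp-43-2, 7 genes rose and 5 fell, 36.4% of the group against 21.9% of all genes. The 7 that rose are 21.2% of the group, against 7.76% of all genes, and the 5 that fell are 15.2%, against 14.1%. Since the genes were chosen with earlier results of these data known, these shares describe the group and were not tested. With arrays centred on their median the split with shTdp-43-2 was 9 higher and 4 lower.

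The 33 genes had a median change of 0.08 under shTdp-43-1 and of 0.11 under shTdp-43-2, and 22 of the 33 were above 0 with either hairpin. Over all 16770 genes the medians were 0.0060 and -0.0075. The median of the 33 genes was 0.0214 under shTdp-43-1 without its replicate 1 and 0.0417 without shCont replicate 3, and 0.121 without its replicate 3. Under shTdp-43-2 it was 0.0451 without its replicate 2 and 0.0356 without shCont replicate 3. With arrays centred it was 0.12 and 0.19, and that of all genes 0.05 and 0.08. By section, the median with shTdp-43-1 was 0.18 for the 6 mevalonate genes tested, 0.09 for the 11 sterol genes, -0.04 for sterol sensing, 0.05 for transport and -0.05 for fatty acid synthesis. With shTdp-43-2 the same medians were 0.15, 0.11, 0.08, -0.04 and 0.03. All 6 knockdown arrays lay above all 3 control arrays for 6 genes, the 5 above and Elovl6, 7.72% of all genes doing so. They lay below for 2 genes, Srebf1 and Scd1, against 10.9% of all genes.

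**Figure D1:**
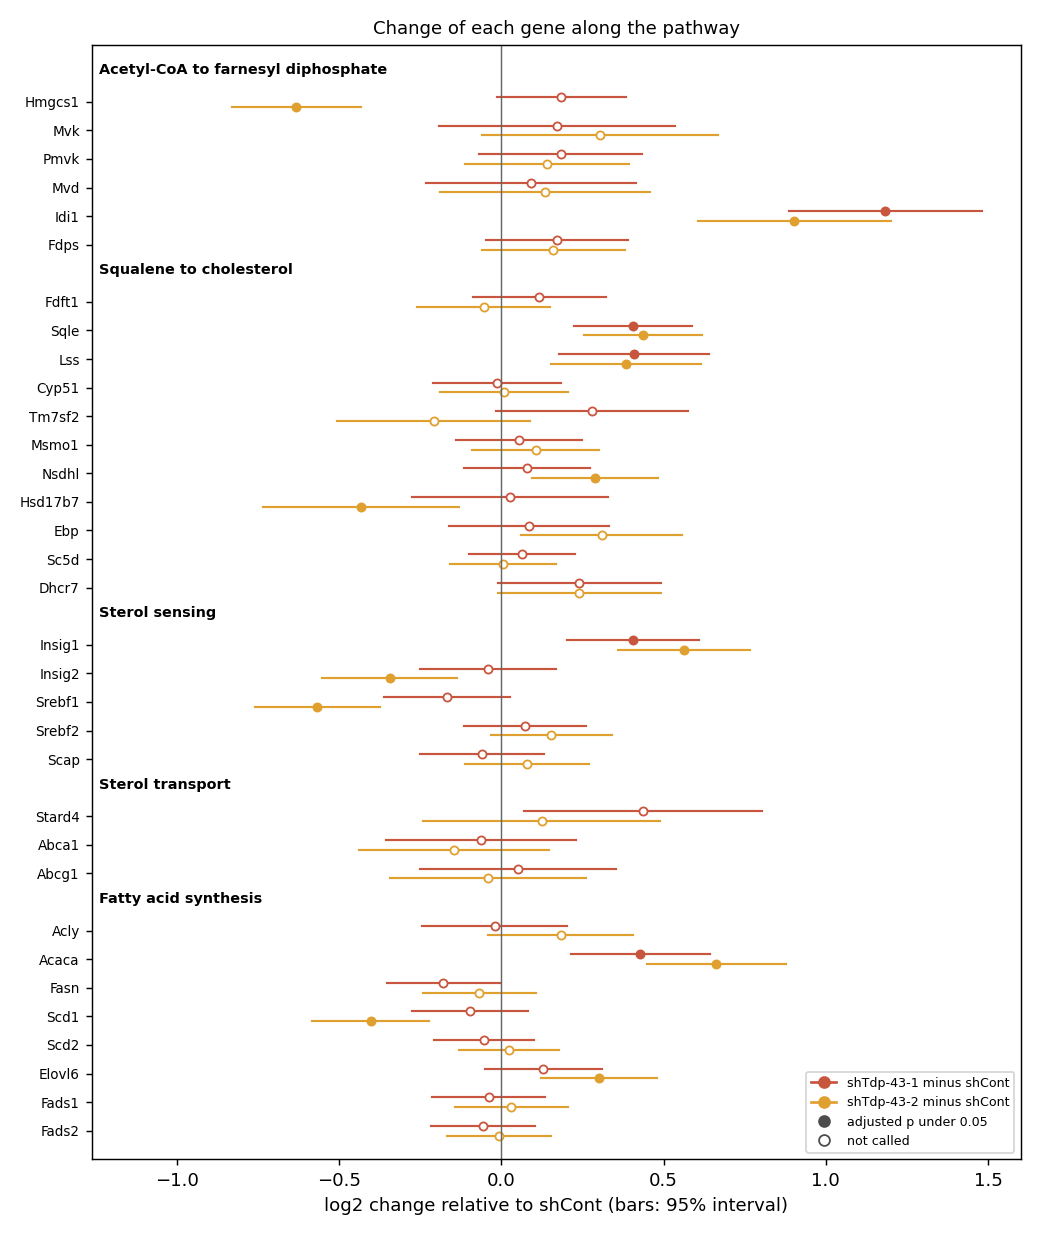
Log2 change of each of the 33 genes with shTdp-43-1 (upper of each pair) and with shTdp-43-2 (lower), relative to shCont, in pathway order with 95% intervals. Filled points passed an adjusted p under 0.05. Idi1 stands furthest to the right, at 1.18 and 0.90, and Hmgcs1 is the mevalonate gene whose points lie on opposite sides of 0, at 0.19 and -0.63.

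Among the mevalonate genes Idi1 rose with both hairpins and Hmgcs1 fell with shTdp-43-2. Idi1, which turns isopentenyl diphosphate into its isomer dimethylallyl diphosphate, read 11.47, 11.57 and 11.57 with shTdp-43-1 and 10.87, 11.49 and 11.41 with shTdp-43-2, against 10.32, 10.43 and 10.31 with shCont. Every knockdown array was above every control array, and shTdp-43-2 replicate 1 was the lowest of the 6. The change was 1.18 ± 0.136 with shTdp-43-1 (SE, 2.27-fold, adjusted p = 0.00048) and 0.90 ± 0.136 with shTdp-43-2 (1.87-fold, adjusted p = 0.000782). The hairpins differed by -0.28 (shTdp-43-2 minus shTdp-43-1, adjusted p = 0.226). All 15 probe sets of Idi1 were higher with each hairpin, by 0.85 to 1.51 with shTdp-43-1 and by 0.72 to 1.09 with shTdp-43-2.

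Hmgcs1, the cytosolic HMG-CoA synthase that condenses acetyl-CoA with acetoacetyl-CoA, read 12.66, 12.47 and 12.59 with shTdp-43-1 and 11.61, 11.89 and 11.79 with shTdp-43-2, against 12.39, 12.43 and 12.35 with shCont. The shTdp-43-2 arrays were below all other arrays, and the shTdp-43-1 arrays were above all control arrays. With shTdp-43-2 the level fell to 64.5% of control (-0.63 ± 0.091, adjusted p = 0.000607), and with shTdp-43-1 the change was 0.19 ± 0.091 (adjusted p = 0.211). The hairpins differed by -0.82 (95% interval -1.02 to -0.62, adjusted p = 0.000339). All 15 probe sets lay above 0 with shTdp-43-1, at 0.03 to 0.52, and below 0 with shTdp-43-2, at -1.18 to -0.06.

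The mevalonate genes between and after these steps were not called with either hairpin. Mvk and Pmvk, the kinases of mevalonate and of phosphomevalonate, changed by 0.17 and 0.18 with shTdp-43-1 and by 0.31 and 0.14 with shTdp-43-2. Mvd, which makes isopentenyl diphosphate, changed by 0.09 with shTdp-43-1 and 0.13 with shTdp-43-2, and Fdps, the farnesyl diphosphate synthase, by 0.17 and 0.16. Adjusted p-values of these 4 genes were 0.229 or more. Their values on shCont replicate 3 were the lowest of the 9 arrays.

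Among the 11 genes from squalene to cholesterol, Sqle and Lss rose with both hairpins, Nsdhl rose with shTdp-43-2 and Hsd17b7 fell with shTdp-43-2. Sqle, the squalene epoxidase and a rate-controlling step of the sterol branch, read 12.14, 11.98 and 12.04 with shTdp-43-1 and 11.98, 12.18 and 12.10 with shTdp-43-2, against 11.61, 11.71 and 11.62 with shCont. The knockdown arrays did not overlap the control arrays. Its change was 0.41 ± 0.0834 with shTdp-43-1 (1.32-fold, adjusted p = 0.0112) and 0.44 with shTdp-43-2 (1.35-fold, adjusted p = 0.00323), and 14 of its 15 probe sets were higher with each hairpin. Without shCont replicate 1 the shTdp-43-1 change was not called (0.39, adjusted p = 0.0523).

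Lss, the lanosterol synthase that closes the sterol rings, read 12.06, 11.83 and 11.98 with shTdp-43-1 and 11.87, 12.10 and 11.83 with shTdp-43-2, against 11.59, 11.66 and 11.38 with shCont. The knockdown arrays lay above the control arrays without overlap, and shCont replicate 3 was the lowest array. The change was 0.41 ± 0.106 with shTdp-43-1 (1.33-fold, adjusted p = 0.0300) and 0.39 with shTdp-43-2 (1.31-fold, adjusted p = 0.0224). All 25 probe sets of Lss were higher with each hairpin, and in its promoter window, printed above, the NF-Y motif ends 58 bases before the start. The shTdp-43-1 call was lost without shTdp-43-1 replicate 1 or 3 or shCont replicate 1 or 3 (adjusted p of 0.0723 to 0.104), and the shTdp-43-2 call without shTdp-43-2 replicate 2 (adjusted p = 0.0796) or shCont replicate 3 (adjusted p = 0.0909).

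Of the 11 sterol genes, 1 was called between the hairpins, Tm7sf2. Tm7sf2, a sterol C14 reductase, read 10.25, 10.19 and 9.85 with shTdp-43-1 and 9.49, 9.63 and 9.70 with shTdp-43-2, against 10.09, 9.77 and 9.59 with shCont. The control arrays overlapped both knockdown groups, which did not overlap each other, and the hairpins differed by -0.49 ± 0.136 (adjusted p = 0.0389). Against shCont its change was 0.28 with shTdp-43-1 (adjusted p = 0.206) and -0.21 with shTdp-43-2 (adjusted p = 0.317). Hsd17b7, the 3-ketosteroid reductase of the pathway, read 11.30, 10.90 and 10.89 with shTdp-43-1 and 10.50, 10.70 and 10.52 with shTdp-43-2, against 11.21, 11.07 and 10.73 with shCont. Each shTdp-43-2 array was below every other array, and the level with shTdp-43-2 was 74.1% of control (-0.43 ± 0.138, adjusted p = 0.0427), while the change with shTdp-43-1 was 0.03 (adjusted p = 0.919). For Hsd17b7 the difference between the hairpins, -0.46, was not called (adjusted p = 0.0526), but was without shCont replicate 3 (adjusted p = 0.0332). The Tm7sf2 call was lost without shTdp-43-1 replicate 1 or 2, shTdp-43-2 replicate 1 or 2, or shCont replicate 2 (adjusted p of 0.0606 to 0.137). The Hsd17b7 call was lost without shTdp-43-1 replicate 3, shTdp-43-2 replicate 1 or 3, or shCont replicate 1 or 2 (adjusted p of 0.052 to 0.166).

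Nsdhl, the sterol C4 decarboxylating dehydrogenase, rose by 0.29 with shTdp-43-2 (adjusted p = 0.037) and changed by 0.08 with shTdp-43-1; without any 1 of shTdp-43-1 replicates 2 and 3, shTdp-43-2 replicates 2 and 3 and shCont replicates 1 and 3 it was not called (adjusted p of 0.05 to 0.142). The other 7 sterol genes, Tm7sf2 among them, were not called with either hairpin. Ebp, the sterol isomerase, changed by 0.09 with shTdp-43-1 and 0.31 with shTdp-43-2 (adjusted p = 0.074; adjusted p = 0.0256 without shTdp-43-1 replicate 1), and Dhcr7, which makes cholesterol from its last precursor in one branch, by 0.24 with each (adjusted p = 0.199 and 0.167). Fdft1, the squalene synthase that commits farnesyl diphosphate to sterols, changed by 0.12 with shTdp-43-1 and -0.05 with shTdp-43-2. Cyp51, Msmo1 and Sc5d, which remove methyl groups from or desaturate the sterol rings, stayed within -0.01 and 0.11 with either hairpin.

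**Figure D2:**
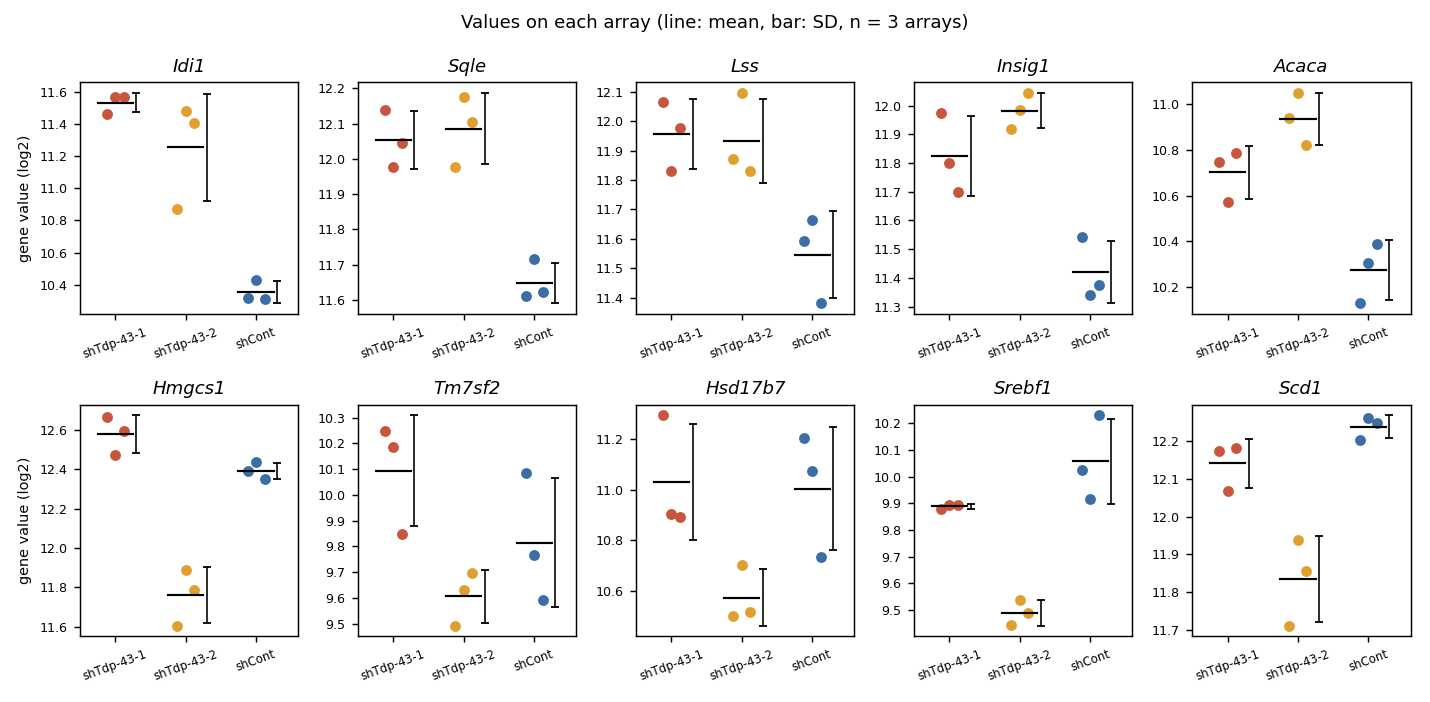
Log2 gene values on every array for 10 genes, with shTdp-43-1, shTdp-43-2 and shCont from left to right, the line at the group mean and the bar at the SD of 3 arrays; the vertical scale differs between panels. In the upper row all 6 knockdown arrays lie above the 3 shCont arrays, and in the lower row the shTdp-43-2 arrays lie lowest, with Tm7sf2 overlapping shCont.

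In sterol sensing Insig1 rose with both hairpins, while Srebf1 and Insig2 fell with shTdp-43-2. Insig1, the ER anchor of Scap and itself a target of SREBPs, read 11.97, 11.80 and 11.70 with shTdp-43-1 and 11.92, 11.98 and 12.04 with shTdp-43-2, against 11.54, 11.34 and 11.38 with shCont. The knockdown arrays did not overlap the control arrays. The change was 0.41 ± 0.0931 with shTdp-43-1 (1.32-fold, adjusted p = 0.0183) and 0.56 with shTdp-43-2 (1.48-fold, adjusted p = 0.00137), and all 10 probe sets were higher with each. Without shCont replicate 2 or 3 the shTdp-43-1 change was not called (adjusted p = 0.0783 and 0.0603). Insig2, the other ER anchor, fell by 0.34 with shTdp-43-2 (adjusted p = 0.0235) and changed by -0.04 with shTdp-43-1, and its call was lost without shTdp-43-2 replicate 3 or shCont replicate 1 or 3 (adjusted p of 0.0591 to 0.092).

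Srebf1, whose products favour fatty acid synthesis genes, read 9.88, 9.90 and 9.89 with shTdp-43-1 and 9.44, 9.54 and 9.49 with shTdp-43-2, against 10.03, 9.92 and 10.23 with shCont. All 6 knockdown arrays lay below the controls, and the shTdp-43-2 arrays lay lowest. With shTdp-43-2 the level fell to 67.5% of control (-0.57 ± 0.0884, adjusted p = 0.000971), with shTdp-43-1 the change was -0.17 (adjusted p = 0.242), and the hairpins differed by -0.40 (adjusted p = 0.0138, and adjusted p = 0.0592 without shTdp-43-2 replicate 1). Of its 32 probe sets, 27 lay below 0 with shTdp-43-1 and 30 with shTdp-43-2. Srebf2, whose product favours cholesterol synthesis genes, changed by 0.07 with shTdp-43-1 and 0.15 with shTdp-43-2 (adjusted p = 0.598 and 0.237), and 63 and 75 of its 82 probe sets lay above 0. Scap, the escort of the SREBPs, changed by -0.06 and 0.08 and was not called.

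Sterol transport had no called gene with either hairpin (limma; of the 3 genes, 1 under shTdp-43-1 and 0 under shTdp-43-2 at an unadjusted p under 0.05). Stard4, a cytosolic carrier of sterol between membranes, changed by 0.44 ± 0.167 with shTdp-43-1 (adjusted p = 0.118) and 0.12 with shTdp-43-2 (adjusted p = 0.642). Abca1 and Abcg1, which export sterol from the cell, changed by -0.06 and 0.05 with shTdp-43-1 and by -0.14 and -0.04 with shTdp-43-2.

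In fatty acid synthesis Acaca rose with both hairpins, Elovl6 rose with shTdp-43-2 and Scd1 fell with shTdp-43-2. Acaca, the acetyl-CoA carboxylase that makes malonyl-CoA and commits carbon to fatty acids, read 10.75, 10.57 and 10.79 with shTdp-43-1 and 10.94, 11.05 and 10.82 with shTdp-43-2, against 10.13, 10.31 and 10.39 with shCont. The groups did not overlap, and the shTdp-43-2 arrays lay highest. The change was 0.43 ± 0.0982 with shTdp-43-1 (1.35-fold, adjusted p = 0.0181) and 0.66 with shTdp-43-2 (1.58-fold, adjusted p = 0.000715). Of the 101 probe sets along Acaca, 97 were higher with shTdp-43-1 and 99 with shTdp-43-2. The shTdp-43-1 call was lost without shTdp-43-1 replicate 3 or shCont replicate 1 or 2 (adjusted p of 0.0537 to 0.0818).

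Scd1, a desaturase that makes oleate from stearate, read 12.17, 12.07 and 12.18 with shTdp-43-1 and 11.71, 11.94 and 11.86 with shTdp-43-2, against 12.20, 12.26 and 12.25 with shCont. All 6 knockdown arrays were below the controls. The level was 75.7% of control with shTdp-43-2 (-0.40 ± 0.0819, adjusted p = 0.00468), the change with shTdp-43-1 was -0.10 (adjusted p = 0.460), and the hairpins differed by -0.31 (adjusted p = 0.0329). That difference was not called without any 1 of the shTdp-43-1 replicates, shTdp-43-2 replicates 1 and 3 and shCont replicate 2 (adjusted p of 0.051 to 0.147). Its close relative Scd2 changed by -0.05 and 0.02 and was not called, and whether probe sets of the Scd genes also read RNA of their relatives was not tested. Elovl6, which lengthens palmitate, rose by 0.30 with shTdp-43-2 (adjusted p = 0.0219) and changed by 0.13 with shTdp-43-1, and it was not called without shTdp-43-2 replicate 2 or 3 or shCont replicate 1 or 2 (adjusted p of 0.0622 to 0.089).

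Fasn, the synthase that builds palmitate from malonyl-CoA, was not called, with -0.18 with shTdp-43-1 (adjusted p = 0.171) and -0.07 with shTdp-43-2 (adjusted p = 0.59). Its 56 probe sets leaned down, with 1 above 0 with shTdp-43-1 and 13 with shTdp-43-2. Acly, which supplies acetyl-CoA from citrate, changed by -0.02 with shTdp-43-1 and 0.18 with shTdp-43-2, and all 30 of its probe sets lay above 0 with shTdp-43-2. Fads1 and Fads2, the desaturases of polyunsaturated fatty acids, stayed within -0.06 and 0.03.

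Between the hairpins 4 of the 33 genes were called, Hmgcs1, Tm7sf2, Srebf1 and Scd1, all lower with shTdp-43-2. This is 12.1% of the group, against 11.5% of all genes, so the share is near the background; 7.31% of all genes were lower with shTdp-43-2. None was higher with shTdp-43-2 (limma; 2 at an unadjusted p under 0.05), against 4.22% of all genes. Tardbp itself differed by 0.03 between the hairpins (adjusted p = 0.956).

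Calls near the threshold turned on single arrays. The number of genes called with both hairpins was 5, and it was 3 when shTdp-43-1 replicate 3 was left out, 2 for shCont replicate 1, 3 for shCont replicate 2 and 3 for shCont replicate 3; the count with shTdp-43-1 took the same values. With the median of a gene's probe sets in place of the mean, Idi1 and Acaca were the 2 genes called with both. Idi1 was called with each hairpin under all 18 other settings, and so were Sqle, Insig1, Acaca, Hmgcs1, Srebf1 and Scd1 with shTdp-43-2. With shTdp-43-1 Sqle was called in 16 of the 18, Insig1 and Acaca in 15 each and Lss in 12. The count between the hairpins was 2 when shTdp-43-1 replicate 2 was left out, 1 for shTdp-43-2 replicate 1 and 2 for shCont replicate 2, and Hmgcs1 was called in each of these.

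**Figure D3:**
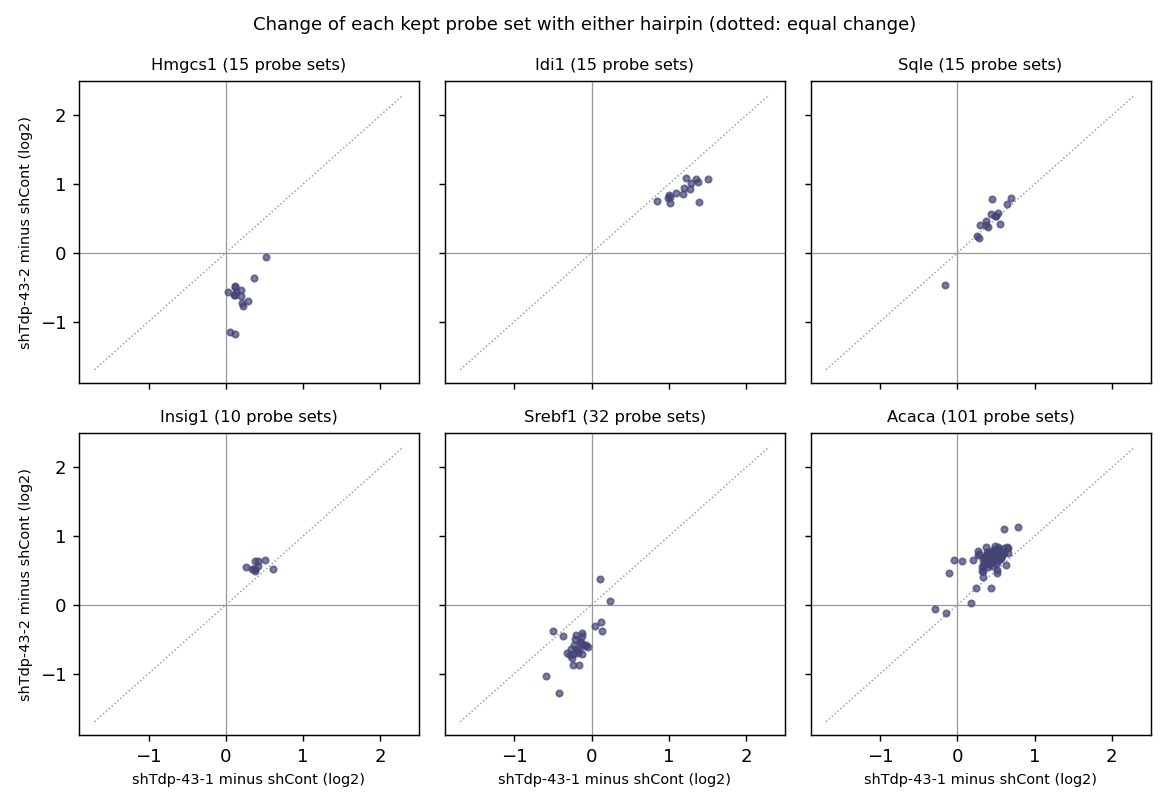
Log2 change of each probe set with shTdp-43-1 (horizontal) and with shTdp-43-2 (vertical), each relative to shCont, for 6 genes; the dotted line marks equal change. The 15 probe sets of Idi1 cluster at the upper right, those of Hmgcs1 lie right of 0 and below it, and those of Srebf1 lie mostly below 0 with both.

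Use of single probe sets, which lie along the exons, was compared with the rest of the gene. Of 793 probe sets of the group, limma's diffSplice called 3 with shTdp-43-1, where 0.494% of all probe sets were called, and 14 with shTdp-43-2, where 1.24% were. The 3 called with both hairpins lay in Sqle, Acaca and Fasn and were all lower, 0.378% of the group's probe sets against 0.189% of all. With each probe set's own variance 0 were called with both hairpins, against 0.00362% of all probe sets, 0 with shTdp-43-1, against 0.00523%, and 1 with shTdp-43-2, against 0.151%. The 1 probe set called among 793 is near that share of all probe sets. That probe set, 4780303 in Srebf1, read 9.67, 9.95 and 9.90 with shTdp-43-1 and 10.03, 9.94 and 10.35 with shTdp-43-2, against 9.73, 9.65 and 9.80 with shCont. With shTdp-43-2 it lay 0.98 ± 0.138 above the change of the rest of Srebf1 (adjusted p = 0.0429), so it was higher where the gene as a whole was lower.

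Other genes of the same metabolism were read from lists of 19 sterol genes, 16 of them tested, and 16 fatty acid genes, all tested. Among the sterol genes 1 rose and 1 fell with shTdp-43-1, and 1 rose and 5 fell with shTdp-43-2. Each count with shTdp-43-1 is 6.25% of the list, against 5.16% of all genes higher and 5.96% lower. With shTdp-43-2 it is 6.25% higher, against 7.76% of all genes, and 31.2% lower, against 14.1%. Mbtps2, the Golgi protease that makes the second cut in SREBPs, was the 1 sterol gene called with both. That is 6.25% of the list, near the 6.45% of all genes with calls of one sign from both hairpins. Its values follow. Mbtps2 read 11.04, 10.97 and 10.98 with shTdp-43-1 and 11.20, 11.35 and 11.20 with shTdp-43-2, against 11.55, 11.50 and 11.64 with shCont. All 6 knockdown arrays lay below the controls, by -0.56 with shTdp-43-1 (adjusted p = 0.00149) and -0.31 with shTdp-43-2 (adjusted p = 0.0160). The shTdp-43-2 call was lost when shTdp-43-2 replicate 1 (-0.28, adjusted p = 0.0641) or shCont replicate 3 (-0.27, adjusted p = 0.0659) was left out.

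The other sterol genes that fell with shTdp-43-2 were Erlin1 (-0.51) and Erlin2 (-0.39), ER membrane proteins that form a complex, Osbp (-0.40), a carrier of oxysterol and cholesterol, and Soat1 (-0.33), which esterifies cholesterol. Mylip, a ubiquitin ligase that removes lipoprotein receptors, rose by 0.44 with shTdp-43-2, and Cyp46a1, the neuronal cholesterol 24-hydroxylase, rose by 0.32 with shTdp-43-1. Mbtps1, the protease of the first cut, changed by -0.08 and -0.05 and was not called.

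Among the fatty acid genes 1 rose and 2 fell with shTdp-43-1, and 2 rose and 1 fell with shTdp-43-2. That is 18.8% of the list with each hairpin, against 11.1% of all genes with shTdp-43-1 and 21.9% with shTdp-43-2. Slc25a1, the mitochondrial carrier that exports citrate for cytosolic acetyl-CoA, read 11.95, 11.80 and 11.72 with shTdp-43-1 and 12.23, 12.17 and 12.16 with shTdp-43-2, against 11.26, 11.25 and 11.19 with shCont. The 3 groups did not overlap. Slc25a1 was the 1 gene of this list called in one direction with both hairpins, 6.25% of the list, against 6.45% of all genes. It rose 1.50-fold with shTdp-43-1 (0.59, adjusted p = 0.00136) and 1.93-fold with shTdp-43-2 (0.95, adjusted p = 2.38e-05), and the hairpins differed by 0.36 (adjusted p = 0.0146; 0.0524 to 0.0639 without shTdp-43-1 replicate 2 or 3 or shTdp-43-2 replicate 1). Elovl1, an elongase of very long chains, rose by 0.43 with shTdp-43-2 and Mecr, of mitochondrial fatty acid synthesis, fell by 0.46. With shTdp-43-1 the malic enzyme Me1 fell by 0.31 and the elongase Elovl7 by 0.45.

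**Figure D4:**
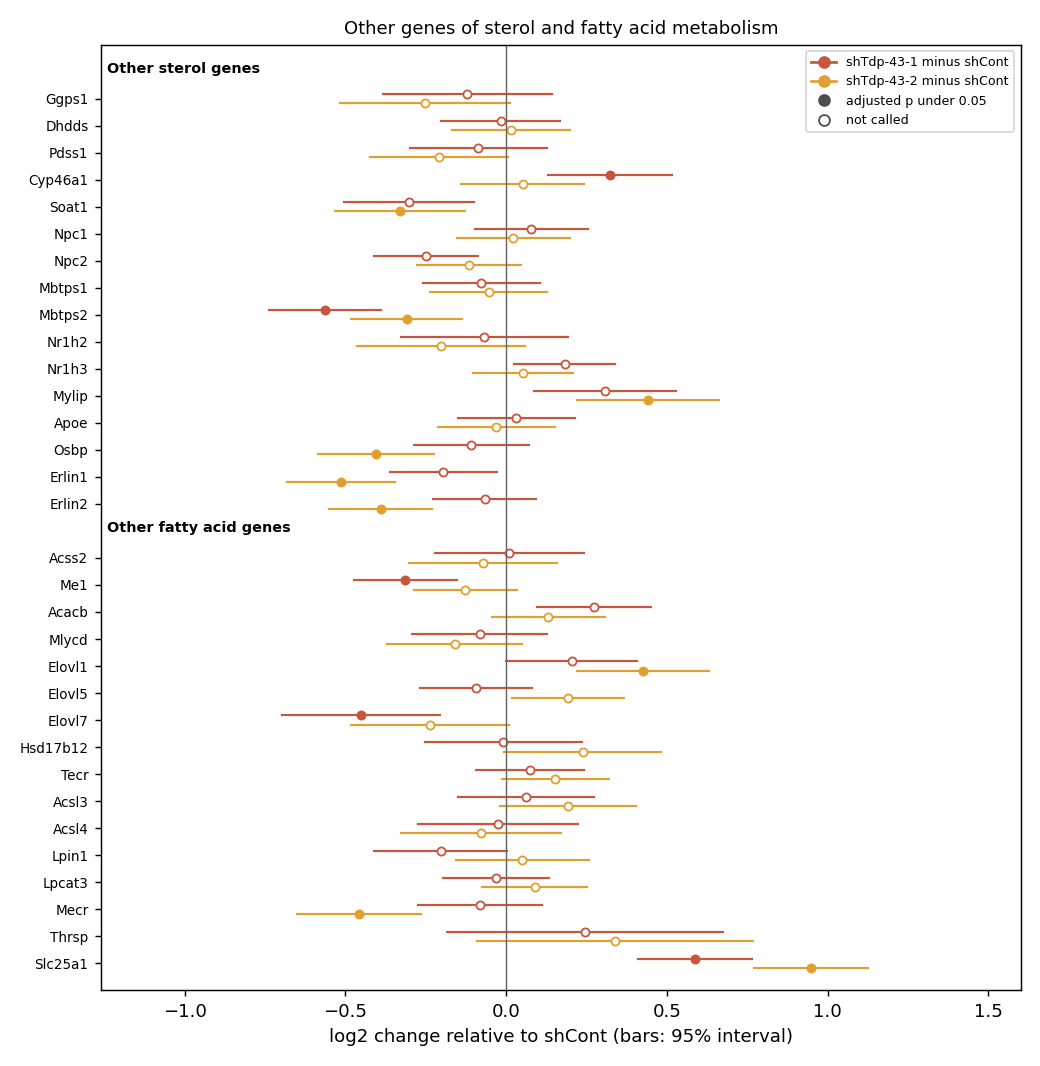
Log2 change of the 32 tested genes of the 2 further lists, with shTdp-43-1 (upper of each pair) and shTdp-43-2 (lower) relative to shCont, with 95% intervals; filled points passed an adjusted p under 0.05. Slc25a1 stands furthest right with both hairpins, at 0.59 and 0.95, and Mbtps2 is the gene with both points filled on the left.

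Cell type markers were read in the same cultures, from short lists in which single markers weigh much in a share. In bulk RNA, fewer cells of a type and less RNA per cell cannot be told apart. The mean log2 level of 10 neuron markers was 11.04 to 11.20 with shTdp-43-1 and 10.91 to 11.05 with shTdp-43-2, against 11.02 to 11.09 with shCont; 2 rose and 1 fell with shTdp-43-1, and 1 rose and 3 fell with shTdp-43-2. The mean of 12 astrocyte markers was 10.74 to 10.81 with shTdp-43-1 and 10.75 to 10.82 with shTdp-43-2, against 10.76 to 10.93 with shCont; 1 fell with shTdp-43-1, and 2 rose and 3 fell with shTdp-43-2. The mean of 9 fibroblast and pericyte markers was 8.51 to 8.56 with shTdp-43-1 and 8.30 to 8.40 with shTdp-43-2, against 8.66 to 8.68 with shCont; 2 fell with shTdp-43-1 and 4 with shTdp-43-2. Of 9 oligodendrocyte and 8 microglia markers none was called with either hairpin (limma; at an unadjusted p under 0.05, 1 and 0 under shTdp-43-1 and 0 and 0 under shTdp-43-2). The mean of 6 progenitor markers was 9.22 to 9.33 with shTdp-43-1 and 9.39 to 9.57 with shTdp-43-2, against 9.35 to 9.36 with shCont, and 1 rose with shTdp-43-2, Nes (0.60, adjusted p = 0.0016; -0.19 with shTdp-43-1). Of 5 endothelial markers 1 rose with shTdp-43-2. With shTdp-43-1 the called share was 30% of neuron, 8.33% of astrocyte and 22.2% of fibroblast and pericyte markers, against 11.1% of all genes. With shTdp-43-2 these shares were 40%, 41.7% and 44.4%, against 21.9% of all genes. Of progenitor and endothelial markers 16.7% and 20% were called with shTdp-43-2. Calls of one sign from both hairpins took 20% of neuron, 8.33% of astrocyte and 22.2% of fibroblast and pericyte markers, against 6.45% of all genes. Called in the same direction by each hairpin were Gad2 (0.69 with shTdp-43-1, 0.65 with shTdp-43-2), Neurod6 (-0.42, -0.78), Aqp4 (-0.43, -0.59), Pdgfrb (-0.71, -0.56) and Rgs5 (-0.40, -0.83). The shTdp-43-1 call was lost for Neurod6 without shTdp-43-1 replicate 2 or shCont replicate 2, for Aqp4 without shTdp-43-1 replicate 1 or 3 or shCont replicate 1 or 3, and for Rgs5 without shTdp-43-1 replicate 2 or 3 or shCont replicate 1 or 3 (adjusted p of 0.0547 to 0.106). It was also lost for Aqp4 with no dim filter (adjusted p = 0.145), and for Aqp4 and Rgs5 with the median of probe sets (adjusted p = 0.0823 and 0.163). Of the other members of these lists, Gad1 rose by 0.29 with shTdp-43-1 and fell by 0.32 with shTdp-43-2. Among the astrocyte markers Vim and Glul rose with shTdp-43-2 by 0.60 and 0.34, while Slc1a2 (-0.35) and Gja1 (-0.36) fell with it. Of the 9 fibroblast and pericyte markers, 4 lay above 0 with each hairpin and were not called. Among these were Col1a1 (0.14 with shTdp-43-1, 0.14 with shTdp-43-2), Col1a2 (0.14, 0.14) and Col3a1 (0.15, 0.14). In the same list Dcn fell by 1.15 with shTdp-43-2, and Fn1 fell too (-0.87). These genes were chosen after their values were seen. The part of these markers in the changes of the lipid genes was not tested.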

How the data were processed

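Total RNA of 9 samples was hybridised to Affymetrix mouse exon arrays. The deposited values are log2 per probe set. Per the labels, the authors ran RMA over all exons in Affymetrix Expression Console, and the submitters' processing notes name the genome build mm9. RMA normalises probe values between arrays, which can hide a change shared by most probes, and compresses differences of dim probe sets. Array medians of the deposited values still ran from 6.04 to 6.19. Of 1256831 probe sets, 318760 had 1 gene symbol in the platform annotation, and only these were used. Symbols were updated through RefSeq (GRCm38.p6): 18006 were current, 4227 were updated and 63 kept.

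A gene value is the mean log2 of at least 3 probe sets averaging 6.07 or more, the table's median (248701 probe sets, 16770 genes, median of 12 each). All groups were fitted together with limma 3.58.1 in R 4.3.3 (lmFit, eBayes, 6 residual degrees of freedom), with Benjamini-Hochberg adjustment over all genes and calls at an adjusted p under 0.05. The number of arrays limits the precision, and exact permutation of 3 against 3 arrays cannot go below a two-sided p of 0.1, so none was used. Probe set usage was tested with diffSplice. This pools the variance over a gene's probe sets and made calls on simulated unchanged data, so a test with each probe set's own variance was added after seeing the data, and a usage change is described where both called it.

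Array values are given for genes called with both hairpins or between hairpins, or with 1 hairpin at a change of 0.4 or more. The members and lists were chosen with earlier results of these data known. Gene sets were not tested.

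The groups were treated as unpaired. The design text of the series speaks of motor neurons and the sample labels of cortical neurons; the labels were followed.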

Additional observations from a re-analysis of the deposited data

Results flagged for a closer look

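Effects of the 2 hairpins against the same control differed, by the test of the difference itself, for 4 genes, all lower with shTdp-43-2 than with shTdp-43-1. Hmgcs1 differed by -0.82, Tm7sf2 by -0.49, Srebf1 by -0.40 and Scd1 by -0.31 (log2, shTdp-43-2 minus shTdp-43-1). The 4 genes are 12.1% of the 33 tested, against 11.5% of all genes. The call of Hmgcs1 was kept in all 18 other settings, that of Srebf1 in 15, and those of Tm7sf2 and Scd1 in 8 each. Without shTdp-43-2 replicate 1 only Hmgcs1 was called. For Hmgcs1 the hairpins lay on opposite sides of shCont, for Srebf1 and Scd1 both lay below it, and Tm7sf2 overlapped it with both hairpins. With shTdp-43-1 the changes of Hmgcs1 (0.19), Srebf1 (-0.17) and Scd1 (-0.10) from shCont were not called (limma, adjusted p = 0.211, 0.242 and 0.460).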

How the results depend on the processing

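Of 120 results for single genes (a gene in 1 contrast), 61 kept their direction and their side of the threshold under all 18 other settings, and 34 turned their direction under at least 1, in 88 values, of which 0 were called under either setting. The 120 results took in the tested genes of the group and also Mbtps2, Slc25a1, Aqp4, Pdgfrb, Rgs5, Neurod6 and Gad2. Those outside the group entered because both hairpins called them in one direction. Tardbp kept its direction and call with each hairpin throughout. Between 8 and 13 genes were called with shTdp-43-2, not always the same ones: Hsd17b7 kept its call in 7 settings, Nsdhl in 8, Elovl6 in 12 and Insig2 in 14. Leaving out 1 array gave 2 to 5 genes called with shTdp-43-1, 2 to 5 called with both hairpins and 1 to 5 called between the hairpins. It gave a median change of 0.0214 to 0.121 with shTdp-43-1 and of 0.0356 to 0.127 with shTdp-43-2, and 0 to 3 probe sets with changed usage. The median of probe sets gave 2 genes with shTdp-43-1, 2 with both and 2 between the hairpins, and a minimum of 1 probe set gave 2 between the hairpins. Centring arrays on their median moved the median change to 0.12 with shTdp-43-1 and 0.19 with shTdp-43-2, and that of all genes to 0.05 and 0.08. Settings added after seeing the data left out shTdp-43-1 replicate 2 and shTdp-43-2 replicate 3, which deviated together (r = 0.681), and gave 1 gene between the hairpins and 1 probe set, and each probe set's own variance gave 0 probe sets. With the replicate number as a block, 5 genes were called with shTdp-43-1, 13 with shTdp-43-2, 5 with both and 5 between the hairpins, and 4 probe sets; no source says that a number marks a shared culture, deviations of same-numbered arrays correlated at -0.383 to 0.593, and not every array correlated best with its own number. Usage was not run with the variance trend or the other scalings. The causes of these shifts were not tested, except that leaving out an array or adding genes changes what is tested.

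Changes that turned their direction, none of them called, were these on the log2 scale. The median of probe sets gave with shTdp-43-1 Cyp51 0.017, Hsd17b7 -0.033, Insig2 0.061 and Acly 0.0018, with shTdp-43-2 Sc5d -0.015, Scd2 -0.00033 and Fads1 -0.011 and between the hairpins Mvk -0.033, Lss 0.031 and Dhcr7 -0.094. Centring the arrays gave with shTdp-43-1 Cyp51 0.032, Insig2 0.0043, Acly 0.024 and Fads1 0.0052, with shTdp-43-2 Fdft1 0.029, Abcg1 0.043, Fasn 0.016 and Fads2 0.077 and between the hairpins Fdps 0.029 and Lss 0.015. Quantile normalisation gave with shTdp-43-1 Insig2 0.0086 and Acly 0.0066, with shTdp-43-2 Abcg1 0.043 and between the hairpins Fdps 0.0029 and Dhcr7 -0.016. Without the pair of arrays named above the values were with shTdp-43-1 Cyp51 0.0027, Abca1 0.032 and Acly 0.034, with shTdp-43-2 Cyp51 -0.025, Sc5d -0.0070, Abcg1 0.074 and Fads2 0.0081 and between the hairpins Sqle -0.015, Cyp51 -0.028, Dhcr7 -0.031 and Gad2 0.0076. Leaving out 1 array, values with shTdp-43-1 ran for Mvd from -0.080 to 0.23, Hsd17b7 from -0.11 to 0.13, Ebp from -0.043 to 0.19, Abcg1 from -0.083 to 0.12, Cyp51 from -0.043 to 0.031, Abca1 from -0.18 to 0.085, Acly from -0.12 to 0.036, Mvk from -0.021 to 0.30 and Insig2 from -0.085 to 0.017. Leaving out 1 array, values with shTdp-43-2 ran for Fdft1 from -0.11 to 0.046, Fads2 from -0.050 to 0.022, Cyp51 from -0.047 to 0.094, Sc5d from -0.019 to 0.043, Abcg1 from -0.18 to 0.074, Mvd from -0.038 to 0.27, Stard4 from -0.058 to 0.25 and Abca1 from -0.26 to 0.0037. Leaving out 1 array, values between the hairpins ran for Pmvk from -0.11 to 0.066, Fdps from -0.066 to 0.045, Lss from -0.11 to 0.029, Abcg1 from -0.23 to 0.042, Pdgfrb from -0.0016 to 0.25, Gad2 from -0.17 to 0.075, Sqle from -0.013 to 0.087, Mvd from -0.049 to 0.17, Dhcr7 from -0.12 to 0.098, Abca1 from -0.18 to 0.020, Cyp51 from -0.034 to 0.11 and Msmo1 from -0.0097 to 0.14.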

Other observations

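Close relatives of the described genes were read the same way. Scd3 changed by 0.08 with shTdp-43-1 and -0.21 with shTdp-43-2 (limma, adjusted p = 0.568 and 0.121), Scd4 by 0.06 and 0.11, and Acat3, an acetyl-CoA acetyltransferase gene, by 0.01 and 0.09, and none of the 3 was called with either hairpin.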
